A study of Mus musculus with 2 samples.

Results

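The genes described here are 38 genes that act in S phase, mitosis or cytokinesis, taken as a list of named genes and matched by symbol to the annotation, and all 38 were found among 55536 annotated genes. They were divided by what their products do into 16 S-phase genes and 22 genes of mitosis and cytokinesis. They were measured in total RNA of whole heart from 14-day-old female B6CASTF1/J mice, the F1 hybrid of C57BL/6J and CAST/EiJ, in 1 group of 2 libraries for which the labels name no treatment, transgene or deletion. The labels number the libraries as biological replicates 1 and 2 under 1 donor entry. The replicate 1 label and a description common to both mention 3 females, and the labels do not say whether 1 library pools animals. With 1 group there was no condition to compare, so the results are levels, their order, their transcripts and the difference between the libraries, without a test between groups. The spread over 2 libraries may be partly technical.

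Before a cell divides it loads the MCM helicase onto replication origins in G1, with the loading factors Cdc6 and Cdt1, and copies its DNA in S phase on forks that carry Pcna. Genes of this step are classical targets of E2F transcription factors. Cyclin B with Cdk1 then drives mitosis, the spindle and checkpoint proteins part the chromosomes, and the ring and midbody proteins separate the daughter cells. Many genes of that late step are activated through the MuvB complex with B-Myb and Foxm1, which acts at CHR elements (cell cycle genes homology region) and CCAAT boxes. In the mouse heart most cardiomyocytes leave the cycle in the first weeks after birth, often after a last round in which DNA is copied and the nucleus divides without cytokinesis, while endothelial cells, fibroblasts and other non-muscle cells go on dividing.

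Promoter sequences are shown for 6 members because the S-phase and the mitotic genes differed in how often they carry certain letters. Each runs from 200 bases before to 30 after the annotated start, 5′ to 3′ on the gene's strand, from RefSeq on GRCm38.p6, the assembly also called mm10. Capitals mark matches on either strand to 3 motifs: E2F (TTTGGCGC, TTTGCCGC, TTTCGCGC or TTTCCCGC), CHR (TTTGAA) and the CCAAT box (CCAAT, which reads ATTGG on the other strand). The S-phase genes shown are Mcm5 (chr8:75109309-75109538, plus strand) and Mcm6 (chr1:128359676-128359905, minus strand). The mitotic genes shown are Cdk1 (chr10:69352883-69353112), Ccnb1 (chr13:100786457-100786686), Ccnb2 (chr9:70421525-70421754) and Cdc20 (chr4:118437314-118437543), each on the minus strand.
Mcm5: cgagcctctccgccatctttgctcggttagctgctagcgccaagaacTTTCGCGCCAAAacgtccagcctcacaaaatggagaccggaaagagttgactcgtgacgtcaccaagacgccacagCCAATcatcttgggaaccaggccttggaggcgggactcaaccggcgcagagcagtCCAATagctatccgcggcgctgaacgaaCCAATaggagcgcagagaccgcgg
Mcm6: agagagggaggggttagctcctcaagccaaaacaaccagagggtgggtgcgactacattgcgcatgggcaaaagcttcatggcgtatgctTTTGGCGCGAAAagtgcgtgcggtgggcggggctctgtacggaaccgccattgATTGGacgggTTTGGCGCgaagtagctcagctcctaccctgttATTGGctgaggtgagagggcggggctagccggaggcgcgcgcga
Cdk1: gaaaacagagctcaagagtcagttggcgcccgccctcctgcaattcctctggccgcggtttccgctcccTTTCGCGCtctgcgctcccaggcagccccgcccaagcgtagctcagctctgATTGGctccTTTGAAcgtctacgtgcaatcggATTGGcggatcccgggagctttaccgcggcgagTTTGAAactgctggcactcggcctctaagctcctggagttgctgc
Ccnb1: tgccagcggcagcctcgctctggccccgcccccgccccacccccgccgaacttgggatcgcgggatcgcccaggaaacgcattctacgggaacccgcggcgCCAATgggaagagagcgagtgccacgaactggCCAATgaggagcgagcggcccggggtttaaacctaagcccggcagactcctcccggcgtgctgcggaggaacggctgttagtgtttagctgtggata
Ccnb2: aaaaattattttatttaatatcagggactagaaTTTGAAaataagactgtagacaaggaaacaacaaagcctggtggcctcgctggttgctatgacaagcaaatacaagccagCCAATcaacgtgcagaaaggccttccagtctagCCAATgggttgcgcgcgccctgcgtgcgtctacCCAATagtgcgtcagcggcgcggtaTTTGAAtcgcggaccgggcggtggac
Cdc20: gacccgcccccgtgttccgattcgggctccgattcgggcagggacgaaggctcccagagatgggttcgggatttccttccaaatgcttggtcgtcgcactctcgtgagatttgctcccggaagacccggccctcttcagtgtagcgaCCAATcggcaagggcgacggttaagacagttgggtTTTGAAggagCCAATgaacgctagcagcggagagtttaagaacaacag
Mcm5 held 2 E2F matches on opposite strands that overlap by part of their letters, the first of them beginning at position -153 from the start, and its other capitals are CCAAT matches. Mcm6 held such an overlapping pair, beginning at position -110, and a further E2F match at -47. Cdk1 was the member that held both an E2F match, at -131, and CHR matches, at -71 and -15. Cdc20 held a CHR match at -18, and Ccnb2 held CHR matches at -167 and at 4. Ccnb1, the partner of Cdk1, held 2 CCAAT matches and neither of the other motifs in its window.

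E2F letters were found in a larger share of the S-phase members and CHR letters in a larger share of the later ones, a difference that was not tested. Windows from 250 bases before to 50 after the start were held for 32 of the 38 members, 14 S-phase and 18 mitotic or cytokinetic, and for 27025 genes in all. Ccna2, Ccne2, Foxm1, Aurkb, Tpx2 and Mcm4 had no entry. An E2F match was found in 6 of 14 S-phase members (42.9%; Mcm3, Mcm5, Mcm6, Mcm7, Cdc6 and Cdt1) and in 1 of 18 later members (5.56%, Cdk1), beside 2.60% of all genes. A CHR match was found in 2 of 14 S-phase members (14.3%; Mcm2 and Cdc45) and in 14 of 18 later members (77.8%), beside 20.2% of all genes. The CCAAT box was present in 9 of 14 and 16 of 18 (64.3% and 88.9%), beside 41.1% of all genes. The members were listed for their cell cycle roles, so these shares describe the list, and a match is letters in a window and not a measured binding site. The E2f1, Ccne1, Tyms and Birc5 windows held no match to any of the 3. The E2f1 window (chr2:154569377-154569676, minus strand) lies inside the gene as annotated for the counts, which reaches 154569892. The Cdc6 window (chr11:98907901-98908200, plus strand) likewise lies inside its gene, which begins at 98907801. Both Mcm7 windows, which reach 138172133 at most, lie inside a gene that reaches 138172422 on the minus strand. Letters around those outer starts were therefore not searched, and the E2F matches of Cdc6 and Mcm7 came from such windows.

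**Figure D1:**
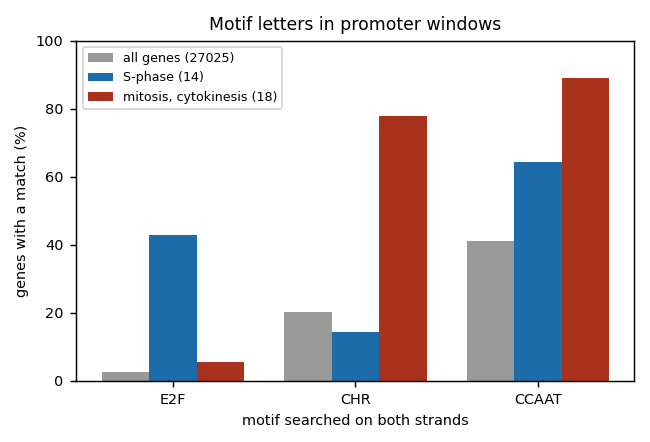
Share of genes (vertical axis, percent) whose promoter window holds each motif (horizontal axis), for all genes in grey, S-phase members in blue and mitosis and cytokinesis members in red, with the number of genes in the key. The E2F bar is tallest for S-phase members (42.9%) and the CHR bar for mitosis and cytokinesis members (77.8%).

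The libraries held 36404376 and 34569708 expected counts in replicates 1 and 2, which are estimated read counts per gene, of which 36197643 and 34358598 were in annotated genes. The heart label was matched by its markers: 8 of 8 cardiomyocyte genes were at 1 TPM or more, with summed levels of 40158 and 41868 TPM (a transcript level divided by length and scaled to the same sum in each library). Markers of other cells present in whole heart were also at 1 TPM or more in both libraries, namely 8 of 8 fibroblast, 8 of 8 endothelial, 7 of 7 mural and 9 of 10 macrophage genes. In whole tissue, fewer dividing cells and less RNA per dividing cell cannot be told apart.

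All 38 members gave counts in both libraries, and 34 were at 1 TPM or more in both. The median member stood at 2.87 ± 0.573 TPM (SD of the library medians, n = 2), with 2.46 TPM in replicate 1 and 3.28 in replicate 2. Of the 38, 2 exceeded 10 TPM, 5 lay between 5 and 10, 28 between 1 and 5, and 3 below 1. All members together took 0.0251% of the counts of replicate 1 (95% Wilson interval 0.0246 to 0.0257) and 0.0299% of those of replicate 2 (0.0293 to 0.0305), and these intervals cover counting error only. The 8886 genes within the members' range of mean counts had a median of 5.49 TPM.

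**Figure D2:**
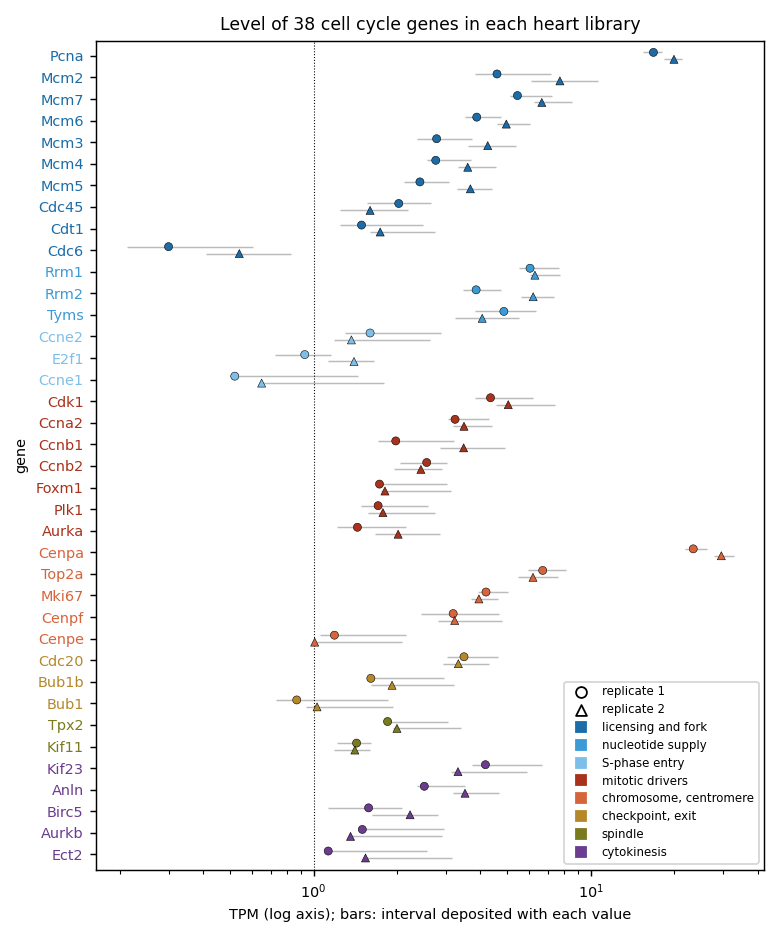
Level in TPM (log axis) of each of the 38 members in replicate 1 (circles) and replicate 2 (triangles), grouped by role in colour, with the interval deposited for each library as a bar. Where the TPM lay below its deposited interval (Ect2, Aurkb and, in replicate 2, Ccne1), the bar starts at the point and not at the interval's lower end. Cenpa and Pcna stand above 10 TPM in both libraries, and Cdc6 and Ccne1 lie below 1 TPM in both.

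Among S-phase genes Pcna was the highest and Cdc6 the lowest in both libraries. Pcna, the sliding clamp that holds polymerases on DNA (chr2:132249162-132253314, minus strand), had 16.8 TPM in the first library and 19.96 in the second, and library values below are given in this order. The MCM subunits, which form the 6-part ring of the replicative helicase, stood below it. Mcm2 was at 4.59 and 7.74 TPM and Mcm7 at 5.44 and 6.66. Mcm6 was at 3.88 and 4.96 TPM and Mcm3 at 2.78 and 4.25. Mcm4 was at 2.76 and 3.60 TPM and Mcm5 at 2.42 and 3.68. All 6 were lower in replicate 1, and within a library the highest MCM level was 2.25 and 2.15 times the lowest. Mcm2, the highest of them in replicate 2, had part of its level in a noncoding transcript, described below. Summed over the ring, the level was 21.9 and 30.9 TPM. Cdc45, which joins the ring to make it an active helicase, was at 2.03 and 1.60 TPM. Of the loading factors that act before it, Cdt1 was at 1.49 and 1.74 TPM, below Cdc45 in replicate 1 and above it in replicate 2. Cdc6 was at 0.30 and 0.54 TPM from 24 and 41 counts. It was also the lowest of all 38 members in both libraries.

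The enzymes that supply nucleotides were all above 3 TPM. Rrm1, the large subunit of ribonucleotide reductase, was at 6.04 and 6.29 TPM. Rrm2, the small subunit that limits the enzyme outside S phase, was at 3.86 and 6.20 TPM. Tyms, which makes thymidylate, was at 4.86 and 4.06 TPM. Rrm2 was thus below its partner in replicate 1 and level with it in replicate 2. The genes of S-phase entry were lower. E2f1, the activator of the S-phase programme, was at 0.93 and 1.40 TPM. Ccne2 was at 1.60 and 1.37 TPM and Ccne1 at 0.52 and 0.65, the 2 E cyclins that activate Cdk2. The order of Ccne2 above Ccne1 held in both libraries.

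The mitotic drivers lay between 1.44 and 5.04 TPM. Cdk1, the mitotic kinase, was at 4.35 and 5.04 TPM, the highest of the 7. Its cyclins were Ccna2 at 3.24 and 3.49 TPM, Ccnb1 at 1.98 and 3.48, and Ccnb2 at 2.56 and 2.44. Ccnb2 exceeded Ccnb1 in replicate 1 and Ccnb1 exceeded Ccnb2 in replicate 2, so their order did not hold over the libraries. Foxm1, which activates late genes, was at 1.73 and 1.81 TPM. The kinases Plk1 and Aurka, which act at centrosomes and the spindle, were at 1.71 and 1.78 TPM and at 1.44 and 2.02 TPM.

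Of the chromosome genes, Cenpa, the histone H3 variant of centromeres (chr5:30666777-30674830, plus strand), was the highest member in both libraries, at 23.4 and 29.6 TPM. Top2a, which untangles sister DNA, was at 6.71 and 6.19 TPM. Mki67, the widely used marker of cycling cells, was at 4.19 and 3.95 TPM. The kinetochore genes Cenpf and Cenpe were at 3.19 and 3.23 TPM and at 1.19 and 1.01 TPM. Top2a and Mki67 were thus slightly higher in replicate 1, where all MCM genes were lower, and this difference in pattern was not tested. Of the checkpoint genes, Cdc20, which activates the anaphase-promoting complex, was at 3.49 and 3.33 TPM. Bub1b and Bub1, which delay anaphase until chromosomes are attached, were at 1.61 and 1.92 TPM and at 0.87 and 1.03 TPM. The spindle genes Tpx2 and Kif11 were at 1.85 and 2.00 TPM and at 1.43 and 1.41 TPM.

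All 5 cytokinesis genes were at 1 TPM or more in both libraries. Kif23, a motor of the central spindle, was at 4.17 and 3.32 TPM. Anln, which links actin and myosin in the contractile ring, was at 2.51 and 3.52 TPM. Birc5 and Aurkb, both of the chromosomal passenger complex, were at 1.58 and 2.23 TPM and at 1.5 and 1.36 TPM. Ect2, the exchange factor that activates RhoA at the division plane, was at 1.13 and 1.54 TPM. By the TPM of the whole gene, Kif23 exceeded Anln in replicate 1 and Anln exceeded Kif23 in replicate 2. Their order thus did not hold either, and it also depended on the transcripts counted, as given below.

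The libraries were then compared gene by gene. Counts were scaled with edgeR's TMM factors, and a gene was called different where its mean count was at least 50, the libraries were at least 1.5-fold apart, and the 95% exact counting interval of the ratio left out 1. This compares 2 libraries, and no test between conditions is possible. Of 36 members with enough counts (Cdc6 and Ccne1 had too few), 4 were called, all higher in replicate 2, and 0 were called higher in replicate 1. Over all 12876 genes with enough counts, 1.44% were called higher in replicate 2 and 2.58% higher in replicate 1, and the 4 members are 11.1% of the 36. Among genes in the members' range of counts the shares were 1.95% and 3.06%.

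Ccnb1 (chr13:100778650-100786570, minus strand) had 89.4 counts in replicate 1 and 165 in replicate 2, 1.89-fold higher in replicate 2 (interval 1.46 to 2.49). Rrm2 (chr12:24708241-24714146, plus strand) had 215 and 329 counts, 1.57-fold higher (1.32 to 1.87). Mcm5 (chr8:75109569-75128439, plus strand) had 172 and 258 counts, 1.54-fold higher (1.26 to 1.87). Mcm2 (chr6:88883474-88898780, minus strand) had 292 and 434 counts, 1.52-fold higher (1.31 to 1.77). Rrm2, Mcm5 and Mcm2 stand close to the 1.5-fold limit, and E2f1, with 69 and 100 counts, was just under it at 1.48-fold (1.08 to 2.05). Ccnb1 shares reads with its processed pseudogene Ccnb1-ps, which was assigned 19.1 counts in replicate 1 and 0 in replicate 2. With these counts added to Ccnb1 the ratio was 1.56-fold (1.21 to 1.99) and it was still called. With ERCC spike-in totals as the scale only Ccnb1 was called, at 1.81-fold. That scale was not tried with the pseudogene counts added, so whether Ccnb1 would meet the rule under both is not shown.

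**Figure D3:**
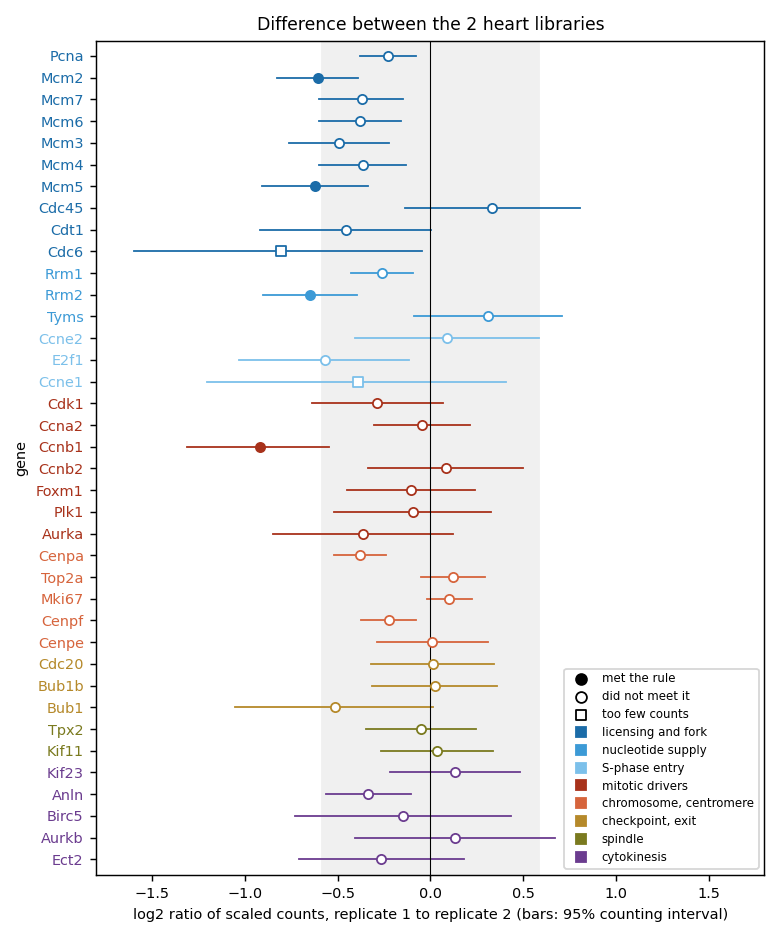
Log2 ratio of scaled counts, replicate 1 to replicate 2 (horizontal axis), for each member with its 95% counting interval, coloured by role. The grey band marks differences under 1.5-fold, filled circles mark the 4 called members and squares the 2 with too few counts. The 6 MCM points lie left of 0 with their intervals, between -0.37 and -0.62.

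The median difference between the libraries was larger for S-phase members than for the later ones. Further replication and mitosis genes, described below, did not repeat this order. The median log2 ratio of replicate 1 to replicate 2 was -0.23 over the members and -0.01 over all 12876 genes. For the 14 S-phase members tested it was -0.38, with 11 of 14 below 0, and for the 22 mitosis and cytokinesis members -0.07, with 13 of 22 below 0. Of all genes 53.1% lay below 0. The counting interval lay wholly below 0 for 14 of 36 members (38.9%), of which 10 were S-phase genes, and wholly above 0 for 0 members. Over all genes these shares were 16.6% and 16.1%. The 6 MCM genes ran from -0.37 (Mcm4 and Mcm7) to -0.62 (Mcm5), and each interval lay below 0. Pcna, Rrm1 and E2f1 were also on that side, at -0.23, -0.26 and -0.57. The mitosis and cytokinesis genes with intervals below 0 were Ccnb1, Cenpa, Anln and Cenpf, at -0.92, -0.38, -0.33 and -0.22. Members whose ratio lay near 0 included Mki67 at 0.10 (-0.02 to 0.22), Top2a at 0.12 (-0.05 to 0.29), Cdc20 at 0.01 and Cenpe at 0.01. Cdc45 and Tyms had the highest ratios, 0.33 (-0.14 to 0.81) and 0.31 (-0.09 to 0.71), and both intervals included 0. Members are not replicates of a condition, so the difference between the phases was not tested. With DESeq2 size factors, totals of annotated genes or spike-in totals as the scale the S-phase median was again the lower, at -0.31 against -0.01 with spike-in totals.

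**Figure D4:**
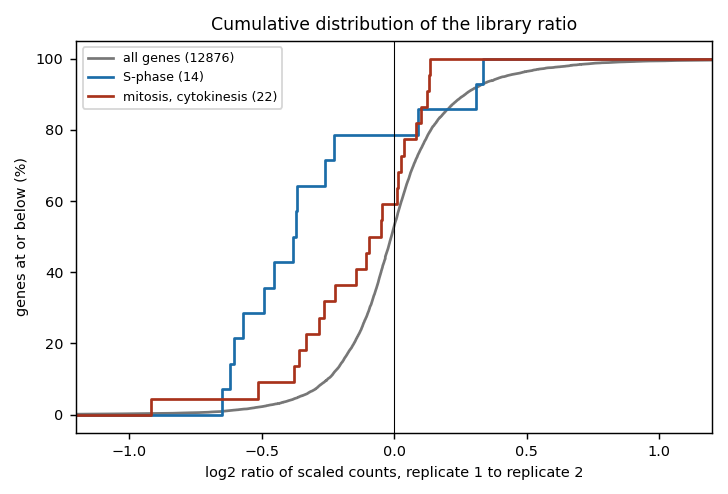
Cumulative share of genes (vertical axis, percent) at or below each log2 ratio of replicate 1 to replicate 2 (horizontal axis) for all 12876 genes tested (grey), 14 S-phase members (blue) and 22 mitosis and cytokinesis members (red). The blue line lies left of the grey line over most of its length, with a median of -0.38 against -0.01.

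The intervals deposited with the TPM values, which describe 1 library each, did not overlap for Pcna, Cenpa, Mcm5 and Rrm2, all higher in replicate 2. That is 4 of 36 members tested, beside 6.5% of all genes higher in replicate 2 and 5.62% higher in replicate 1. Mcm2 and Ccnb1 had overlapping intervals although their counts met the rule. The second quantification, a set of transcript tables made from the same libraries with another program, placed 35 of 38 members higher in TPM, by a median of 1.199 times. It gave the same direction between libraries for 36 of 38 members.

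Reads that could not be placed on 1 gene were divided by the program, and counts that were not whole (by more than 0.005) were seen in 8 members: Ccnb1, Rrm2, Mcm7, Pcna, Cdc20, Kif11, Top2a and Tyms. Pcna-ps2, a processed copy, was assigned 37.7 and 41.9 counts beside the 663 and 759 of Pcna. Mcm7 overlaps Cops6 and Ap4m1 on the opposite strand and hosts the microRNA genes Mir25, Mir93 and Mir106b. Ccna2 overlaps Exosc9, Cdc20 overlaps Elovl1, Cdc45 overlaps Ufd1 and Ccne2 overlaps Ints8, all on opposite strands. The sources used here do not say whether the counting used strand, so reads of these pairs may be mixed.

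Transcripts of a gene were compared in the first quantification for the 35 members with a mean of at least 1 TPM. The leading transcript carried a median of 79.5% of a gene's TPM, and in 30 of 35 it carried at least 50%. A protein-coding transcript led in 32 of 35. Protein-coding transcripts together carried a median of 89.2%, and 3 members fell under 50%: Cenpa, Kif23 and Tyms. For Cenpa, coding transcripts made up 12.4% in replicate 1 and 16.9% in replicate 2, and transcripts annotated as targets of nonsense-mediated decay 69.4% on average. Its coding level was thus 2.91 and 5.01 TPM, within the range of the other members, where the whole gene was the highest. The second quantification gave Cenpa a coding share of 11.5%, with a different decay transcript in the lead. Kif23 had 25.98% and 32.2% in coding transcripts, with the rest in retained-intron (34.4%) and processed (36.6%) transcripts, and a coding share of 25.6% in the second quantification.

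Other members had noncoding shares that depended on the program or the library. For Tyms the coding share was 57.8% in replicate 1 and 16.9% in replicate 2, and 68.5% in the second quantification. For Ccnb1 retained-intron transcripts held 28.1% in the first quantification and 59.8% in the second. Its coding level was 1.27 TPM in replicate 1 and 2.77 in replicate 2. Top2a had 45.3% in transcripts annotated as processed, with coding levels of 3.67 and 3.39 TPM. For Mcm2 a 273-base transcript annotated for decay held 31.0% and 35.2% in the first quantification and 0% in the second. The coding levels of Mcm2 were 3.03 and 4.61 TPM, below the 4.40 and 5.75 TPM of Mcm7. For Mcm5 the leading transcript differed between the libraries: 1 coding transcript held 27.7% and 83.6%, and another coding transcript 54.3% and 0.74%. Ect2 spread over 13 transcripts with no stable leader, and its coding share was 53.0% in the first quantification and 26.5% in the second. For Aurka the coding share was 85.95% in the first and 52.7% in the second, where a retained-intron transcript led. For Pcna it was 97.7% and 63.1%. The same transcript led in both libraries in 30 of the 34 members with more than 1 transcript, and in 27 of 34 the transcript with the highest mean share also led in the second quantification.

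**Figure D5:**
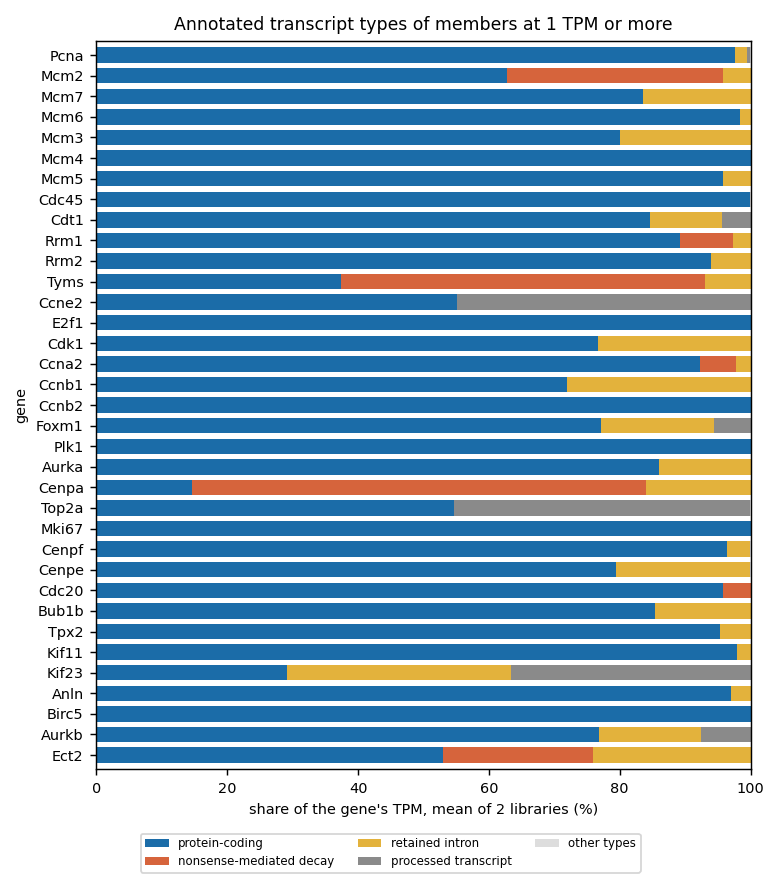
Share of each gene's TPM (horizontal axis, percent, mean of 2 libraries) by annotated transcript type, for the 35 members at a mean of 1 TPM or more. In the first quantification, which is shown, Cenpa, Kif23 and Tyms are the 3 with under 50% in protein-coding transcripts, at 14.7%, 29.1% and 37.4%.

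Other genes of the same processes were described from 3 further lists. Of 42 further replication genes 33 were at 1 TPM or more in both libraries, led by Rpa1, a subunit of the protein that coats single-stranded DNA, at 28.0 and 29.7 TPM. Orc3 and Orc4, of the origin recognition complex, followed at 16.1 and 16.7 TPM and at 15.4 and 15.97 TPM, and Pold2, a subunit of polymerase delta, at 13.0 and 14.7 TPM. Their median log2 ratio was -0.05 over 33 tested, and 1 was called, Rfc4 of the clamp loader, 1.63-fold higher in replicate 2 from 52 and 83 counts. Of these 33, 25 lay below 0 and 8 above, beside 6840 of all 12876 genes below 0. Most further replication genes thus shared the direction of the MCM genes, but as a list they did not match the size of that shift. This comparison was not tested.

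Of 50 further mitosis genes 27 were at 1 TPM or more in both libraries, led by Pttg1 (securin) at 23.3 and 27.1 TPM, Zwint at 18.3 and 18.9, Bub3 at 14.5 and 16.8, and Ncapd2 at 11.8 and 13.5. Their median ratio was -0.12 over 36 tested, with 27 below 0, and was lower than the -0.05 of the further replication genes. The larger shift of S-phase than of later members was thus not repeated between these lists, a comparison that was not tested. Hmmr, a spindle protein, was called 2.01-fold higher in replicate 2 from 82 and 161 counts, and Dlgap5, which stabilises spindle microtubules, 1.62-fold higher from 69 and 109 counts. Called were thus 1 of 33 further replication genes and 2 of 36 further mitosis genes tested, each higher in replicate 2. Of all genes with enough counts 1.44% were called in that direction, and the comparison was not tested. Of 17 further cytokinesis genes 16 were at 1 TPM or more in both libraries, none was called, and the median ratio was -0.12. They were led by Rhoa at 104 and 108 TPM, Myh9 at 58.4 and 64.9, Chmp4b at 43.8 and 46.8, and Rock2 at 36.6 and 33.1. These leading genes have functions outside division as well, so their level does not measure dividing cells.

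Markers of other cell types also differed between the libraries, and most lists whose sums differed were higher in replicate 1. Macrophage markers summed to 123 TPM in replicate 1 against 93.2, with 9 of 10 at 1 TPM or more in both libraries, and Lyz2 and Cd163 were called higher in replicate 1. Erythroid markers summed to 25797 and 19886 TPM with 0 of 7 tested called, and Ahsp of that list was not matched in the annotation. Of these 7, 2 had log2 ratios below 0, among them Tfrc at 114 and 158 TPM. Lymphocyte and thymus markers summed to 10.7 and 6.74 TPM with 1 of 14 at 1 TPM or more in both, and Rag1 had 82 counts in replicate 1 and 1 in replicate 2. Airway and lung markers summed to 186 and 12.1 TPM. Of the 10, 6 had enough counts, and all 6 were called higher in replicate 1, among them Scgb1a1 at 97.6 and 5.96 TPM. Sftpc of that list, with too few counts to be tested, went the other way, with 0 and 16 counts. Endothelial markers summed to 964 and 830 TPM, with Fabp4 at 488 and 411 and Aqp1 at 187 and 134. Of the 8, 0 were called and 2 went the other way, Cldn5 and Kdr, the latter at 37.6 and 46.8 TPM. Fibroblast and mural markers summed to 1210 and 1191 and to 504 and 508 TPM. Brown fat markers summed to 576 and 526 TPM through Fabp4, while their median log2 ratio was -0.26, the direction of the members, with Ucp1 at 32.6 and 47.8 TPM. Neutrophil and mast cell markers summed to 8.46 and 8.18 TPM. Epicardial markers summed to 45.01 and 43.3 TPM with Wt1 called higher in replicate 1. No marker on these lists was at 0 counts in both libraries. The part of these differences in the higher S-phase levels of replicate 2 was not tested.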

How the data were processed

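Total RNA of heart was made into 2 libraries, each from 300 ng with ERCC spike-ins, depleted of ribosomal RNA, per the labels. Deposited readme files name mm10 and GENCODE M21. The sources used here do not give the aligner, the programs, their versions or the handling of CAST/EiJ reads. The first quantification has, per the file headers, expected counts and TPM per gene and transcript, the deposited interval of each TPM as a score of precision, and each transcript's percent of the gene's TPM. The second quantification has, per the file headers, estimated counts and TPM per transcript, summed here per gene. No values were transformed before use except that expected counts were rounded for scaling factors and intervals.

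Library ratios used expected counts scaled with TMM (edgeR 4.0.16, R 4.3.3) over 55536 annotated genes, with 95% exact Clopper-Pearson intervals. DESeq2 1.42.0 gave an alternative. Shares have Wilson intervals. Both cover counting error only, and a gene at 0 counts could hold up to 3 counts at this depth. A gene was called different when its mean expected count reached 50, its libraries were at least 1.5-fold apart, and its interval left out 1. A level of 1 TPM in both libraries counted as detected. Scripts were tested on simulated data. Values are the mean ± SD over 2 libraries, or each library's value.

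The members and lists were chosen with earlier results of these data known. Every member was named, with the 4 highest genes and the called genes of 3 further cell cycle lists. For the marker lists the summed TPM, genes at 0 in both libraries and called genes were given, and 1 list is not reported here. Promoter letters came from RefSeq windows and were searched on both strands. Python 3.11.15 was used for the rest, with scipy 1.17.1 for the intervals.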

Additional observations from a re-analysis of the deposited data

How the results depend on the processing

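The median member level, 2.87 TPM, became 6.68 TPM when TPM was rescaled over nuclear protein-coding genes and 1.96 TPM over protein-coding transcripts only, a setting chosen after seeing the data. Leaving out a replicate gave 2.46 to 3.28 TPM. At 2 TPM in place of 1 TPM, 20 members passed in both libraries in place of 34, and the count over the single libraries was 34 to 36. The median log2 ratio of replicate 1 to replicate 2 lay between -0.27 (totals of annotated genes) and -0.16 (spike-in totals), beside -0.23. In place of 4 called members there was 1 (Ccnb1) with spike-in totals as the scale, 2 (Mcm2 and Mcm5) among members with whole-number counts (chosen after seeing the data), 11 with a lower fold limit and 0 with a 2-fold limit. There were 5 with totals of annotated genes (E2f1 added) and 5 in the second quantification (Mcm3 added). A mean count limit of 10 gave 5 (Cdc6 added), and the ratio of TPM gave 3 (without Mcm5). In each of these settings and in the other scalings tried, 0 members were called higher in replicate 1. The leading transcript's share was 72.2% to 79.5% with 1 replicate left out. Ratios and calls between the libraries have no value with a replicate left out. No paired analysis was possible because there is 1 group.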
